A study of Homo sapiens with 36 samples.

Results

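Carfilzomib, a proteasome inhibitor, was given at 10 nM to MDA-MB-231 cells that also received SHP1705 at 10 µM, and polyA RNA was sequenced after 24 h. The comparison described here set the 3 libraries treated with both drugs against the 3 libraries treated with SHP1705 for the same time, which are 6 of the 36 libraries of the series, and it was made across all genes. The 6 libraries were taken by treatment label and time and not by measured values, while the comparison itself was picked with earlier results of these data known. MDA-MB-231 is a human triple-negative breast cancer line, and all cells of this set grew in RPMI-1640 medium with fetal bovine serum and received drugs from stocks made in DMSO. In the same 24 h set, 3 libraries received DMSO and 3 received carfilzomib at 10 nM without SHP1705, and these served to ask whether the response to carfilzomib differed when SHP1705 was absent. The 2 other sets of the series ran for 8 h, 1 with MG132 at 100 nM and 1 with carfilzomib at 10 nM, each with the same 4 kinds of group.

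The proteasome is the protease of the cytosol and nucleus that degrades proteins tagged with ubiquitin. Its 20S core holds the cutting sites, and its 19S regulator recognises and unfolds the substrates. Carfilzomib is an epoxyketone that binds the chymotrypsin-like site of the core, encoded by PSMB5, irreversibly. When the proteasome is inhibited, cells are known to make more of it: the transcription factor NRF1 (gene NFE2L1), normally extracted from the endoplasmic reticulum by the ATPase VCP and degraded, reaches the nucleus and drives the subunit genes. The same stress is known to engage the heat shock factor HSF1, the oxidative stress factor NRF2, the integrated stress response and selective autophagy. SHP1705 stabilises cryptochrome, a protein that shuts off its own gene as part of the circadian clock.

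The 6 libraries held 24500000 to 27400000 counts each, and the 12 libraries of the 24 h set held 18900000 to 34000000. Carfilzomib replicate 1 stood apart from the other 11 libraries on the second principal component (42.2 against -24.2 to 9.36). It does not enter the main comparison except through the estimate of spread, and 4063 genes were called without it against 3912 with it. No 2 libraries of a group were identical. All 12 markers listed for this line, mostly mesenchymal and basal genes but also the keratin KRT18, exceeded 1 CPM in all 6 libraries. Of 11 luminal breast markers 6 exceeded 1 CPM in all 6. The summed level of that list, mostly KRT8 and KRT19, was 1931 ± 27.5 CPM with SHP1705 and 1910 ± 43.4 CPM with both drugs. ESR1 and PGR had at most 2 counts in any of the 6, FOXA1 at most 6 and TFF1 at most 7. Of 13 fibroblast markers 4 exceeded 1 CPM in all 6 (sums of 50.7 ± 2.32 and 53.1 ± 2.38 CPM), while POSTN and DCN had 0 counts. Of 10 blood cell markers 2 did so (119 ± 5.29 and 137 ± 8.86 CPM, mostly CD68), while MS4A1 had 0. Of 9 liver markers 1 did so, SERPINA1 (list sums of 37.2 ± 1.74 and 25.4 ± 5.23 CPM), while ALB, APOA2, APOB and TTR had 0. The part of these cell types in the results was not tested. The design text mentions 3 independent experiments but does not tie them to libraries, so the p-values rest on the variation among libraries, and part of it may be technical.

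Adding carfilzomib to SHP1705 changed 3912 of 16183 tested genes at an adjusted p under 0.05, of which 1909 were higher (11.8% of genes tested) and 2003 lower (12.4%). Most changes were modest. A 2-fold rise or more was reached by 172 genes (1.06%) and a 2-fold fall or more by 71 (0.439%). The median log2 fold change of all genes tested was 0.0028, and the groups of 3 did not overlap for 6446 genes (39.8%). Values are relative to the other RNAs of a library, so in these bulk samples fewer cells of a state and less RNA per cell cannot be told apart.

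Every gene of the 26S proteasome tested here was higher with carfilzomib. All 14 subunits of the 20S core rose, by log2 0.50 to 1.25 with a median of 0.84, and all 19 subunits of the 19S regulator rose, by 0.27 to 1.58 with a median of 0.84. Summed over the 14 core genes, the level was 3070 CPM, 3027 CPM and 3068 CPM in the 3 SHP1705 libraries and 5564 CPM, 5620 CPM and 5665 CPM in the 3 libraries with both drugs. Over the 19 regulator genes it was 4012 ± 32.1 CPM and 7288 ± 28.6 CPM (mean ± SD, n = 3 each). The ranges of both sums lay far apart. Without SHP1705 the core sum went from 3073 ± 111 CPM in DMSO to 5306 ± 166 CPM with carfilzomib, and the medians of both lists there were 0.79 and 0.83. Of genes tested, 10.1% were higher and 11.4% lower in that comparison.

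The highest subunit was PSMC4, an ATPase of the 19S base that lies at chr19:39971165-39981764 (GRCh38.p14). PSMC4 stood at 188, 182 and 189 CPM with SHP1705 and at 552, 559 and 554 CPM with both drugs, a 2.98-fold rise (1.58 ± 0.050 on the log2 scale, adjusted p = 4.43e-16). Its 3 values in each group lay within a few percent of each other and the groups were far apart. PSMB2, a beta subunit of the core, went from 199.9, 203 and 212 CPM to 436, 424 and 429.9 CPM (log2 1.07 ± 0.041, adjusted p = 1.3e-14). PSMD13, a lid subunit of the regulator, went from 162 ± 3.94 CPM to 368 ± 8.57 CPM. PSMB5, which carries the site that carfilzomib binds, rose less, from 119, 119.8 and 123 CPM to 183, 182 and 189 CPM (log2 0.62 ± 0.047). PSMB3 and PSMB7, also beta subunits, rose by 1.25 and 1.16, PSMD3 and PSMD1 of the regulator by 1.04 and 0.86, and PSMD4, a ubiquitin receptor, by 0.73.

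**Figure D1:**
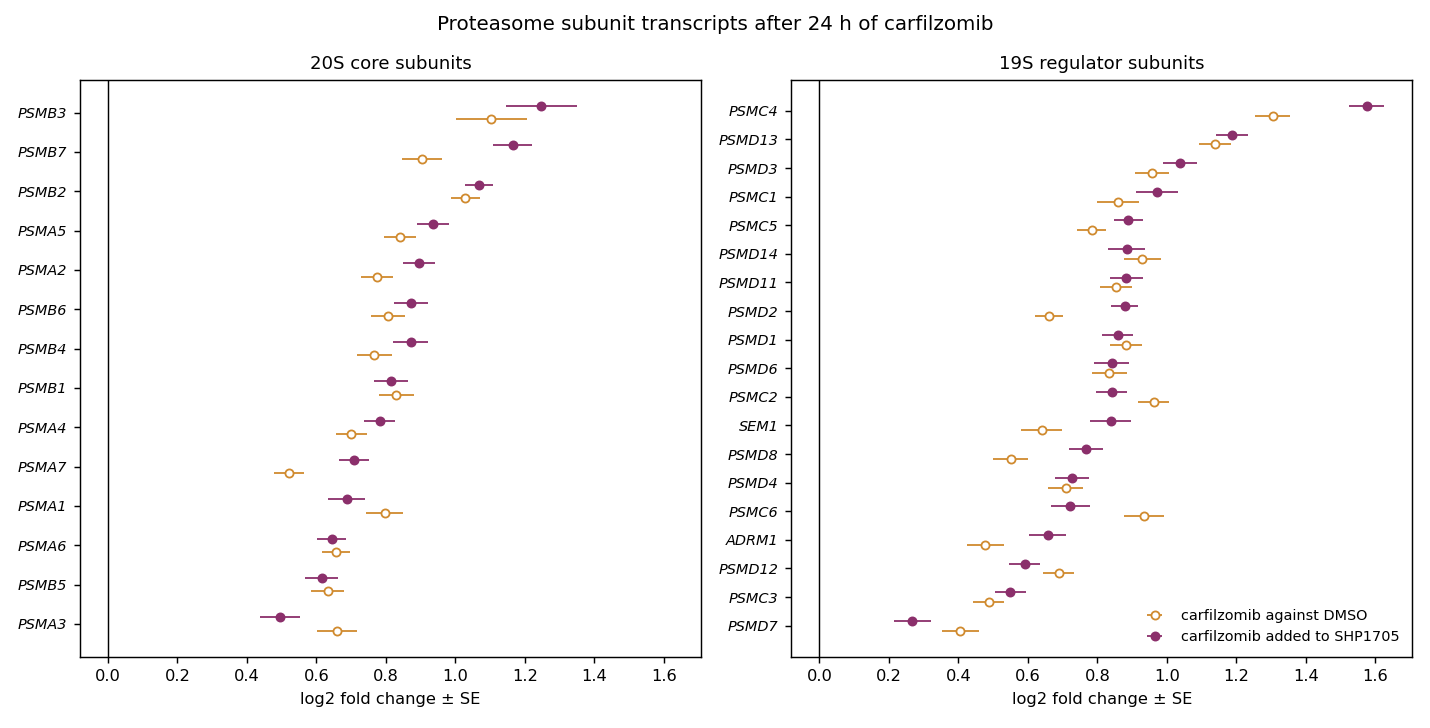
Log2 fold change with its standard error (horizontal axis) for the 14 subunits of the 20S core and the 19 of the 19S regulator, for carfilzomib added to SHP1705 (filled) and carfilzomib against DMSO (open), 24 h. All 33 genes lie to the right of 0 in both comparisons, with PSMC4 farthest at 1.58 when carfilzomib was added to SHP1705.

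Not all genes of the wider family moved this way. Of 13 assembly chaperones and activators, 4 rose, 2 fell and 7 did not pass. POMP, the chaperone of core maturation, rose by 0.88 ± 0.047 on the log2 scale, from 158 ± 4.27 CPM to 291 ± 12.1 CPM, and PSME4, the PA200 activator cap, by 0.71 ± 0.059. The genes of the PA28 activator, PSME1 and PSME2, fell by 0.38 and 0.29. Among 13 genes of the immunoproteasome and antigen presentation, 1 rose and 8 fell, with a median of -0.19. The 3 inducible catalytic subunits were among those that fell. PSMB8 went from 418, 422 and 446 CPM to 304, 303 and 305 CPM (log2 -0.49 ± 0.049), PSMB9 from 374, 378 and 349.5 CPM to 240.1, 205 and 240.2 CPM (-0.69 ± 0.070) and PSMB10 from 37.1, 36 and 41.6 CPM to 24.4, 20.6 and 25.9 CPM (-0.69 ± 0.084). In each of the 3 genes the groups did not overlap, while their constitutive counterparts PSMB5, PSMB6 and PSMB7 rose.

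In the list of NRF1, VCP and ubiquitin genes, 10 of 20 rose, 3 fell and the median was 0.19. VCP, the extraction ATPase, rose from 577, 584 and 571 CPM to 959, 929.5 and 986 CPM (log2 0.73 ± 0.039, adjusted p = 1.84e-12). Its cofactor UFD1 rose from 81.4, 85.5 and 78.9 CPM to 177, 189 and 187 CPM (1.17 ± 0.053), and ZFAND2A, an arsenite- and heat-inducible protein that associates with the proteasome, from 23.7 ± 0.648 CPM to 51.7 ± 2.65 CPM (1.12 ± 0.073). USP14, a deubiquitinase bound to the regulator, rose by 0.51. NFE2L1 itself, which encodes NRF1, fell by 0.13, a call that was lost without SHP1705 replicate 1 (-0.078) or without any 1 of the 3 combination libraries (-0.13 each time), and with no filter on low counts (-0.13).

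UBB fell while the subunits rose. UBB, which encodes a ubiquitin precursor at chr17:16380779-16382745, stood at 1604, 1648 and 1603 CPM with SHP1705 and at 737, 796 and 857 CPM with both drugs, a 2.03-fold fall (log2 -1.02 ± 0.057, adjusted p = 3.89e-12). The 2 groups did not overlap. UBB holds near-identical ubiquitin repeats, so its reads could be shared with other ubiquitin genes in counting.

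The promoters of the subunit genes were searched for the antioxidant response element, the site bound by NRF1 and NRF2 with small MAF partners, spelled TGACNNNGC and read on both strands. The window was 250 bases before to 50 after the gene start, from RefSeq on GRCh38.p14, and 11558 of the 16183 genes tested had an entry. The element was present in 5 of 18 regulator genes (27.8%), in 1 of 10 core genes and in 15.3% of all tested genes with a window. It was present in 35 of the 112 windows of genes that rose 2-fold or more (31.2%) and in 5 of the 39 of genes that fell as much (12.8%). The letters were chosen with matches in these windows known, and a match is a description, not a bound site. The PSMC4, GLA and UBB windows are shown because they hold the element in the subunit that rose most, in a lysosomal enzyme gene that rose more, and in a gene that fell. Capitals mark the element, which in PSMC4 reads on the opposite strand.
PSMC4, chr19:39970915-39971214, plus strand: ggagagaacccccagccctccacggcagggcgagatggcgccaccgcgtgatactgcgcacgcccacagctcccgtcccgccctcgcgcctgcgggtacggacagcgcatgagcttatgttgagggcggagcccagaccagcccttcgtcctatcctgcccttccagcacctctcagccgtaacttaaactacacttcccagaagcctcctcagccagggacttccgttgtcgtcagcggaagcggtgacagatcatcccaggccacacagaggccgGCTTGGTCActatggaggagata
GLA, chrX:101407876-101408175, minus strand: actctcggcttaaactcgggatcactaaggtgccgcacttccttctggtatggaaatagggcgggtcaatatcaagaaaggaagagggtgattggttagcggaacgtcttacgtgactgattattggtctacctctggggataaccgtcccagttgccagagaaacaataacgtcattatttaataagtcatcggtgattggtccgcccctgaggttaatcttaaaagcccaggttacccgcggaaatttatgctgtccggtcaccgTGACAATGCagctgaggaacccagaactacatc
UBB, chr17:16381040-16381339, plus strand: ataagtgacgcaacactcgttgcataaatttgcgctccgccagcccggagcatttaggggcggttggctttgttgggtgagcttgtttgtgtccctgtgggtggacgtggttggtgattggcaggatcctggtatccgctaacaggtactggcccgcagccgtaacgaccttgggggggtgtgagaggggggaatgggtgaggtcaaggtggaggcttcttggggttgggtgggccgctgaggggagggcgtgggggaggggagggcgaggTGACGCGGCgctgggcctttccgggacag
The UBB window follows the start used in the promoter table, which lies inside the outer bounds of the gene. The first capital lies 27 bases after the start base in PSMC4, 17 in GLA and 21 in UBB. The letters of the element occurred in windows of genes that moved in opposite directions, and whether it acts in these genes was not tested.

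Heat shock chaperones split. Of 28 tested genes 12 rose and 5 fell, with a median of 0.12. HSPA6, a strictly inducible HSP70 at chr1:161524540-161526894, had the second highest fold of the comparison among the named genes. It stood at 0.946, 1.34 and 1.73 CPM with SHP1705 and at 18.3, 15.9 and 18.4 CPM with both drugs, a 13-fold rise (log2 3.70 ± 0.17, adjusted p = 2.02e-13). Its relative HSPA7 is nearly identical in sequence, so reads may be shared. The lowest HSPA6 value with both drugs was far above the highest with SHP1705. HSPB8, a small heat shock protein of chaperone-assisted autophagy, rose from 8.43, 9.53 and 7.09 CPM to 25.3, 26.2 and 25.3 CPM (1.62 ± 0.10). The inducible pair HSPA1A and HSPA1B rose by 0.77 and 0.52, with HSPA1A at 716, 735 and 711 CPM and then 1246, 1143 and 1289.7 CPM. Their coding sequences are nearly the same, so the split between them is uncertain. HSP90AA1, the inducible cytosolic HSP90, rose from 1796 ± 37.9 CPM to 2815 ± 99.3 CPM.

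Other chaperones of the same system went down. HSPA8, the constitutive HSP70, fell from 1448, 1479 and 1495 CPM to 776, 787 and 837 CPM (log2 -0.88 ± 0.049, adjusted p = 4.77e-12). Its J-domain partner DNAJA1 fell from 377, 375 and 376 CPM to 269, 269.9 and 270.0 CPM (-0.48 ± 0.040), with both groups tight and apart. DNAJB1, usually induced with HSPA1A, fell by 0.24. Of the 8 subunits of the CCT chaperonin 4 rose and 0 fell.

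The heat shock element, searched as GAANNTTC (its reverse complement is the same letters), was in 10 of 26 windows of the chaperone list and in 4.72% of all windows. The HSPA6 window is shown because it held 2 such elements, in capitals, in the chaperone gene that rose most.
HSPA6, chr1:161524290-161524589, plus strand: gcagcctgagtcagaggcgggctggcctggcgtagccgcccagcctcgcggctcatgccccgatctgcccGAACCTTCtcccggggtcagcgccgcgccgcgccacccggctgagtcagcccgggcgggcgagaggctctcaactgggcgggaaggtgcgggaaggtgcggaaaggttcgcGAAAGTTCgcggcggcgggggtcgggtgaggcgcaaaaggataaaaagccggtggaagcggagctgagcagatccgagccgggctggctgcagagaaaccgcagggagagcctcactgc
They begin 180 and 69 bases before the start base. HSPA8 and DNAJA1 belong to the same list and fell.

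**Figure D2:**
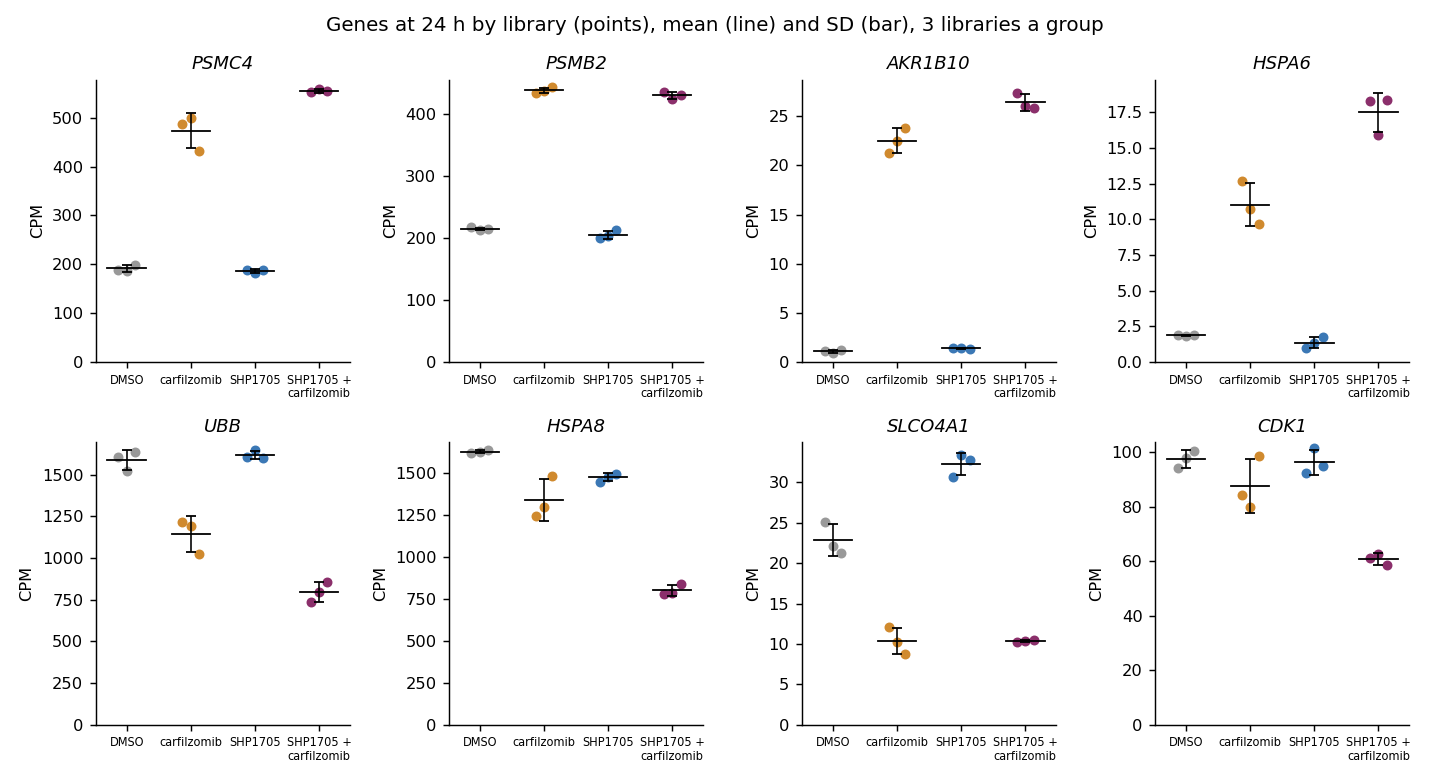
CPM by library (points) with the mean and SD of 3 libraries for 8 genes in the 4 groups of the 24 h set; each axis starts at 0. PSMC4, PSMB2, AKR1B10 and HSPA6 are higher and UBB, HSPA8, SLCO4A1 and CDK1 lower in the 3 libraries with both drugs than in the 3 with SHP1705, with no overlap.

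AKR1B10, an aldo-keto reductase of the NRF2 programme at chr7:134527567-134541412, rose most of the genes named by level. It stood at 1.38, 1.46 and 1.29 CPM with SHP1705 and at 27.4, 26 and 25.9 CPM with both drugs, a 19.2-fold rise (log2 4.26 ± 0.12, adjusted p = 1.03e-16). AKR1B15 is a close neighbour and relative, and reads may be shared between them. B4GALNT1, the enzyme that makes the GM2 and GD2 gangliosides, went from 3.23, 4.30 and 3.67 CPM to 23.4, 25.2 and 23.6 CPM (2.69 ± 0.12). MLLT11 went from 2.01, 2.07 and 1.91 CPM to 10.3, 11.2 and 10.9 CPM and ELAPOR1, an endosome and lysosome associated membrane protein, from 2.36, 1.91 and 1.58 CPM to 8.63, 7.54 and 8.27 CPM. In all 4 genes the level with SHP1705 was low and the 3 values with both drugs were close together.

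The next genes were of several kinds. GLA, the lysosomal alpha-galactosidase at chrX:101397803-101407925, rose from 25.9, 25.7 and 26.5 CPM to 89, 95.4 and 85.8 CPM (1.79 ± 0.068, adjusted p = 1.3e-14). FBXO2, a ubiquitin ligase subunit that recognises glycoproteins, rose from 4.65, 3.77 and 4.41 CPM to 15, 14.3 and 12.5 CPM. GABARAPL1, a lipidated protein of the autophagosome membrane, rose from 24.7, 21.1 and 25.3 CPM to 69.9, 67.4 and 68.6 CPM (1.53 ± 0.080). DNM1, a dynamin, rose from 28.2 ± 1.08 CPM to 88.4 ± 1.45 CPM and ACOT13, an acyl-CoA thioesterase, from 20.01 ± 2.85 CPM to 62.7 ± 2.31 CPM. The log2 standard errors of these 5 genes ran from 0.068 to 0.16. The genes were named from the called genes with the highest folds, so errors below their changes were part of the choice.

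The NRF2 list was mixed outside AKR1B10. Of 28 genes 13 rose and 8 fell, with a median of 0.24. ME1, the cytosolic malic enzyme, rose from 18.1, 15 and 18.3 CPM to 44.9, 40.3 and 45.1 CPM (1.34 ± 0.089). HMOX1, heme oxygenase, rose from 11.6, 10.9 and 10.2 CPM to 19.4, 17.4 and 17.8 CPM (0.74 ± 0.11), the ferritin light chain FTL by 0.51 and TALDO1 of the pentose phosphate pathway by 0.54. NQO1, the quinone reductase often taken as the standard NRF2 target, fell from 219, 231 and 235 CPM to 140.3, 147 and 155 CPM (log2 -0.63 ± 0.057, adjusted p = 1.7e-08). SLC7A11, the cystine transporter, fell by 0.35, from 20.3, 30.1 and 25.6 CPM to 19.5, 19.9 and 20.4 CPM, with groups that overlapped. The SLC7A11 call was lost without SHP1705 replicate 2 (-0.21), SHP1705 replicate 3 (-0.34), combination replicate 1 (-0.33) or combination replicate 2 (-0.35).

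Autophagy and lysosome genes rose more often than they fell: 12 of 24 rose, 1 fell, and the median was 0.19. SQSTM1, the p62 receptor that carries ubiquitinated cargo, rose from 503, 509 and 509 CPM to 901, 848 and 857 CPM (0.78 ± 0.040, adjusted p = 1.32e-12). TAX1BP1, another receptor, rose by 0.40 and MAP1LC3B, which encodes LC3B, by 0.41.

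**Figure D3:**
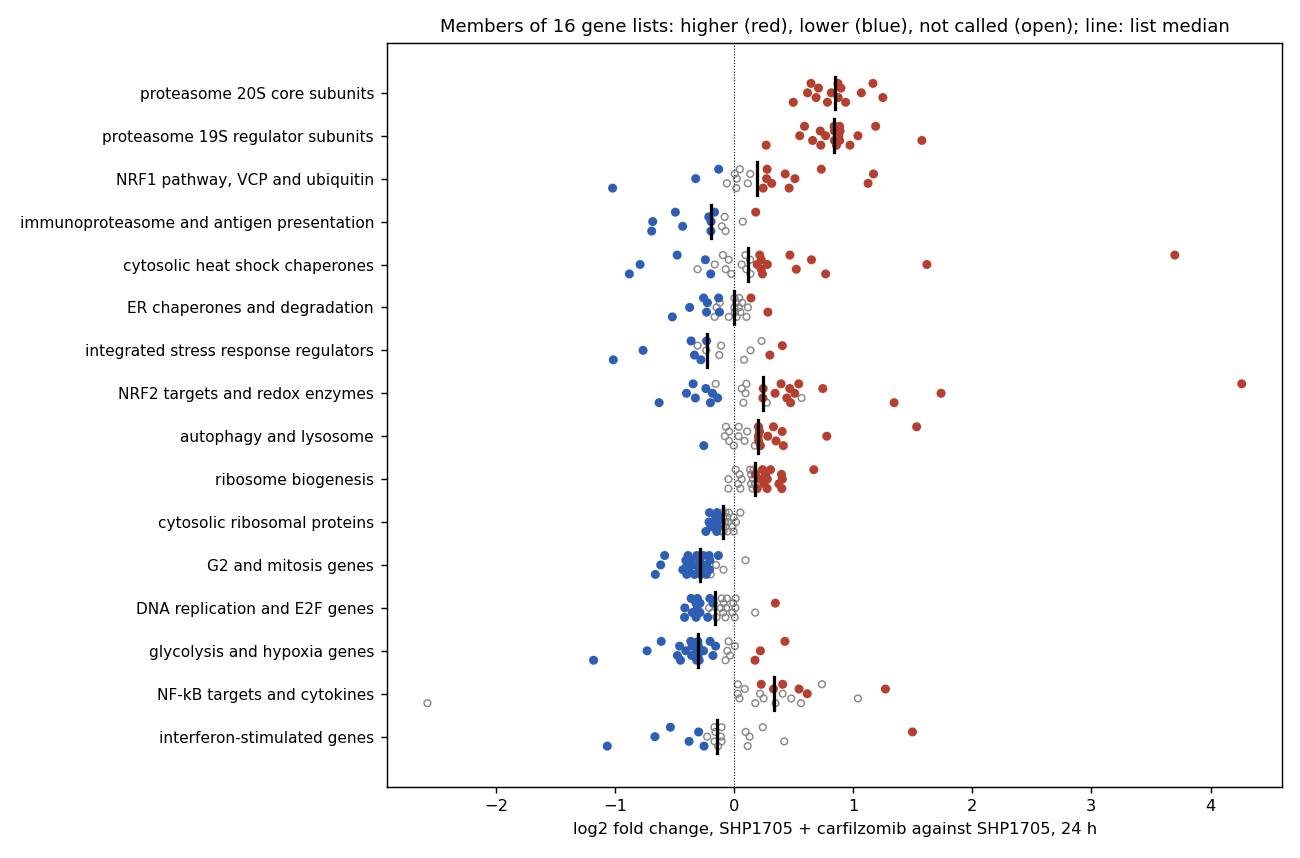
Log2 fold change of the tested members of 16 gene lists for carfilzomib added to SHP1705 at 24 h, with higher genes in red, lower genes in blue, genes that did not pass open and the list median as a line. The 2 proteasome lists lie wholly above 0 with medians of 0.84, and G2 and mitosis genes have a median of -0.29.

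In the lists of the unfolded protein and integrated stress responses, more genes were called lower than higher. Of 24 genes for chaperones and degradation in the endoplasmic reticulum, 2 rose and 7 fell, with a median of 0.0013. Without combination replicate 2 the number that fell was 4. Of the 24, called or not, 13 had a log2 fold change above 0. Their summed level was 8494 ± 120 CPM with SHP1705 and 8025 ± 106 CPM with both drugs. HSPA5, the chaperone BiP, fell from 1392, 1436 and 1333 CPM to 1194, 1165 and 1199 CPM (-0.23 ± 0.038). MANF fell from 129.8 ± 0.563 CPM to 90.5 ± 1.37 CPM and the transcription factor XBP1 from 90.3 ± 4.997 CPM to 69.7 ± 3.51 CPM, while the stress sensor ATF6 rose by 0.28. Of 15 regulators and targets of the integrated stress response, 2 rose and 6 fell, with a median of -0.23. The summed level of that list did not fall, at 880.5 ± 4.8 CPM with SHP1705 and 887.2 ± 9.49 CPM with both drugs. ATF4, its central factor, fell from 191, 195 and 203 CPM to 152, 155 and 161 CPM (-0.33 ± 0.045, adjusted p = 7.36e-06). GDF15, a secreted stress cytokine, fell from 14.6, 17.4 and 15.5 CPM to 7.43, 8.07 and 7.96 CPM (-1.02 ± 0.12) and the pseudokinase TRIB3 fell by 0.36. DDIT3, which encodes CHOP, stood at 16.1, 18.4 and 19.8 CPM and 14.7, 16.9 and 18.1 CPM and did not pass (log2 -0.13 ± 0.12, adjusted p = 0.504), and neither did ATF3 (log2 0.23 ± 0.12). PPP1R15A, which encodes the phosphatase subunit GADD34, rose by 0.30.

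Amino acid synthesis and transport, the usual ATF4 targets, gave 1 gene higher and 7 lower of 17, with a median of -0.16. The summed level of the list was not lower, at 2376 ± 14.6 CPM with SHP1705 and 2422 ± 33.3 CPM with both drugs. The number that fell was 3 without SHP1705 replicate 2 and 4 without combination replicate 1 or combination replicate 2. SLC1A4, a neutral amino acid transporter, fell from 11.3, 12 and 10.2 CPM to 5.46, 5.43 and 6.16 CPM (-0.98 ± 0.13), whereas SLC3A2, the heavy chain shared by several transporters, rose by 0.22.

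Among called genes averaging 5 CPM or more whose groups did not overlap, those that fell most were of several kinds. SLCO4A1, an organic anion transporter at chr20:62642503-62690740, fell from 30.7, 33.4 and 32.8 CPM to 10.3, 10.3 and 10.5 CPM, a 3.11-fold fall (log2 -1.64 ± 0.10, adjusted p = 2.18e-11). ADGRF1, an adhesion G protein-coupled receptor, fell from 21.9, 20.4 and 21.8 CPM to 7.90, 7.95 and 8.89 CPM (-1.37 ± 0.11). NOX5, a calcium-dependent NADPH oxidase, fell from 13.6, 14.6 and 14.3 CPM to 6.54, 5.68 and 6.12 CPM and CDH4, a cadherin, from 95.1 ± 2.02 CPM to 45.5 ± 0.0325 CPM. The separation of these groups was thus part of how the genes were chosen.

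BCYRN1, a short noncoding RNA related to Alu repeats, stood at 52.3, 48.7 and 84.1 CPM and 28, 22.1 and 26.2 CPM (-1.28 ± 0.16), with 1 SHP1705 library well above the other two, and its counts can be shared with repeats. PPFIBP2, a liprin, fell from 13.2, 11.8 and 13.4 CPM to 6.04, 4.05 and 5.85 CPM. CTSO, a lysosomal cysteine protease, fell by 1.09, SPNS2, a sphingosine-1-phosphate exporter, by 1.08, the interferon-induced genes IFITM1 and GBP4 by 1.07 and 1.06, and MDFI, an inhibitor of myogenic factors, by 1.04. These 5 genes had at most 11.9 ± 1.19 CPM in the SHP1705 group, the level of IFITM1.

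Genes of G2 and mitosis fell as a group. Of 30 tested, 0 rose and 25 fell, with a median of -0.29, and their summed level went from 4846 CPM, 4997 CPM and 4884 CPM to 3960 CPM, 4010 CPM and 4038 CPM. CDK1, the mitotic kinase at chr10:60778331-60794852, fell from 92.4, 102 and 95.2 CPM to 61.3, 62.8 and 58.5 CPM (log2 -0.66 ± 0.067, adjusted p = 8.96e-08). BIRC5, which encodes survivin, fell by 0.62, UBE2C, the ubiquitin-conjugating enzyme of the anaphase-promoting complex, by 0.58, TOP2A, topoisomerase II alpha, by 0.43 and PLK1, the polo-like kinase, by 0.21. Replication genes gave 1 higher and 13 lower of 30, with a median of -0.16. In the comparison without SHP1705, 15 of the 30 mitosis genes fell and 0 rose, with a median of -0.15.

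The letters TTTGAA of the cell cycle homology region, searched on both strands, were in 17 of 24 windows of the mitosis list and in 9.68% of all windows. The CDK1 window is shown as an example of a match to the letters.
CDK1, chr10:60778081-60778380, plus strand: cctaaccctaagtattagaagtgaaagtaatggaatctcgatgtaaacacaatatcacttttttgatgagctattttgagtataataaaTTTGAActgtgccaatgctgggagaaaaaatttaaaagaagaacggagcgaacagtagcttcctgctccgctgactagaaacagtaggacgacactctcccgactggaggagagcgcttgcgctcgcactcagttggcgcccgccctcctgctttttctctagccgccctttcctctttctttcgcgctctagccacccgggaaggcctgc
The match begins 161 bases before the start base in this window, and whether it is the site that acts in CDK1 was not tested. Of windows of all genes that fell, 12.4% held these letters.

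Inhibitors of the cell cycle did not move together. CDKN1A, which encodes p21, fell from 219.9, 219 and 221 CPM to 154, 158 and 154 CPM (-0.50 ± 0.045, adjusted p = 1.69e-08), and CDKN2C fell by 0.74. CDKN1C rose by 0.64 and GADD45A, a stress gene of growth arrest, rose from 112, 109.7 and 113 CPM to 162, 158 and 159 CPM. Of 19 p53 targets and inhibitors 4 rose and 4 fell, and 2 fell without combination replicate 2.

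Glycolysis and hypoxia genes also went down. Of 28, 3 rose and 20 fell, with a median of -0.30. CA9, the hypoxia-induced carbonic anhydrase, fell from 28.2, 28.6 and 27.6 CPM to 11.3, 12.9 and 13 CPM (log2 -1.18 ± 0.10, adjusted p = 8.91e-09). PFKL, liver-type phosphofructokinase, fell from 325 ± 7.63 CPM to 212 ± 0.527 CPM, LDHA, lactate dehydrogenase A, from 2086, 2188 and 2258 CPM to 1547, 1586 and 1645 CPM, and ALDOC, an aldolase, by 0.73. P4HA1, a collagen prolyl hydroxylase, fell from 136, 140.1 and 140.1 CPM to 95.6, 100.4 and 103 CPM and BNIP3, a mitophagy receptor, from 188, 181 and 203 CPM to 142, 131 and 142 CPM. The summed level of the list's 29 genes, 1 of them too low to test, was 24120 ± 241 CPM with SHP1705 and 20970 ± 272 CPM with both drugs, against 21880 ± 304 CPM with DMSO and 21000 ± 524 CPM with carfilzomib (mean ± SD, n = 3 each). The SHP1705 group was thus the highest of the 4 in this list.

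Inflammatory genes rose in part. Of 20 NF-kB targets and cytokines 6 rose and 0 fell, with a median of 0.34. IL6 rose from 4.49, 4.05 and 4.96 CPM to 13.4, 9.49 and 9.77 CPM (1.27 ± 0.17, adjusted p = 6.59e-06), TNFAIP2 by 0.61 and NFKBIA, the inhibitor that NF-kB induces in feedback, by 0.54. Interferon-stimulated genes gave 1 higher and 6 lower of 20. The 1 that rose was MX1, an antiviral GTPase, from 15.3, 13.4 and 14.7 CPM to 41.3, 39.8 and 41.3 CPM (1.496 ± 0.074), while OAS3 of the same programme fell by 0.67. Of the MAP kinase phosphatases, DUSP1 rose from 36.5, 30.7 and 28.6 CPM to 65.1, 67.1 and 61.6 CPM and DUSP6 fell by 0.49. In the list of YAP targets and matrix genes 7 rose and 8 fell, and 5 fell without SHP1705 replicate 2 or combination replicate 1. CCN1, a YAP target, rose by 0.44 and the collagen cross-linking enzymes LOX and LOXL2 fell by 0.49 and 0.61.

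Ribosome genes moved in small steps. Of 28 ribosome biogenesis factors 14 rose and 0 fell, with a median of 0.18. Of 28 ribosomal proteins 0 rose and 10 fell, with a median of -0.094, and 6, 5 and 6 fell without SHP1705 replicate 3, combination replicate 1 and combination replicate 2. RPLP0 of the ribosomal stalk fell by 0.24.

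The response to carfilzomib was then set beside that seen without SHP1705, in libraries that the 2 comparisons do not share. Of the 1909 genes higher when carfilzomib was added to SHP1705, 982 (51.4%) were also higher with carfilzomib against DMSO, which is 60.2% of the 1631 higher there. Of the 2003 lower genes 1076 (53.7%) were also lower, which is 58.5% of 1841. 11 genes passed in opposite directions. Across all genes tested the 2 sets of log2 fold changes had Pearson's r = 0.45, as a description across genes, which are not independent replicates.

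AKR1B10 also rose without SHP1705, from 1.09, 0.916 and 1.18 CPM in DMSO to 21.3, 22.5 and 23.8 CPM with carfilzomib (4.41 ± 0.13), and the difference of the 2 effects was -0.15 ± 0.21 (adjusted p = 0.805). For B4GALNT1 the difference was -0.17 ± 0.18 and for PSMC4 0.27 ± 0.070 (adjusted p = 0.734 and 0.0838). The PSMC4 difference passed without carfilzomib replicate 2 (0.31), in DESeq2 (0.27) and with no filter on low counts (0.27). A p that misses the threshold does not show that the effects were alike.

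**Figure D4:**
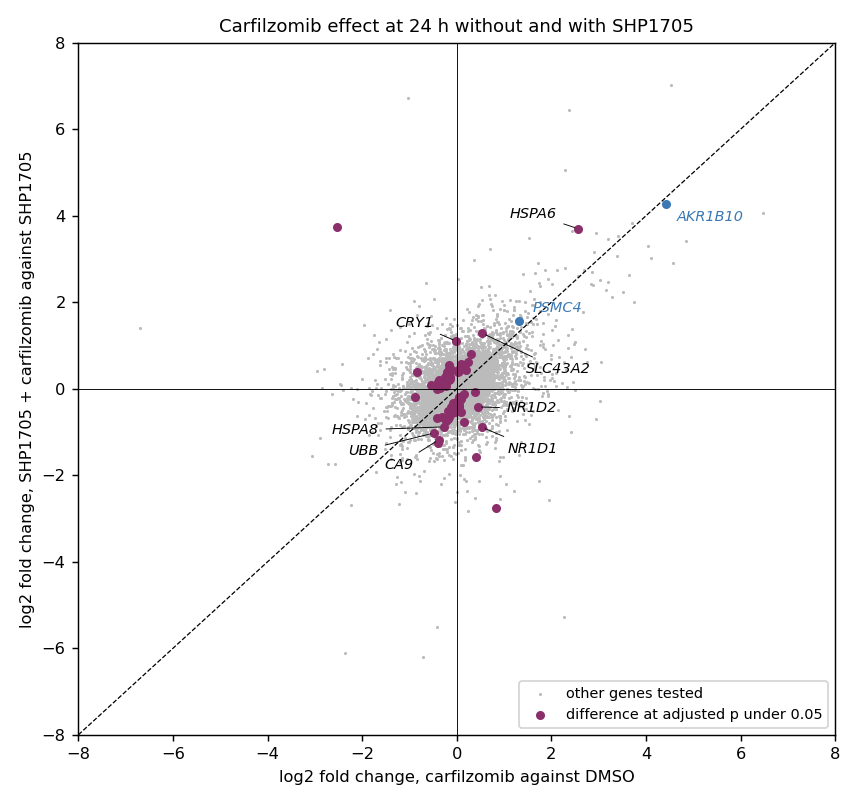
Log2 fold change for carfilzomib against DMSO (horizontal) and for carfilzomib added to SHP1705 (vertical) for the 16183 genes tested at 24 h, with equality dashed and genes whose 2 effects differed at an adjusted p under 0.05 in purple. AKR1B10 and PSMC4, in blue, lie near the line, CRY1 lies above it near 0 on the horizontal axis, and UBB and HSPA8 lie below it.

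The effect of carfilzomib itself differed with and without SHP1705 for 78 genes (0.482% of genes tested), 34 with a positive difference (0.210%) and 44 with a negative one (0.272%). This count moved with the method and the libraries, being 346 in DESeq2 and 20 to 477 when 1 library was left out. It was lowest without SHP1705 replicate 2 or combination replicate 1 (20 each) and highest without carfilzomib replicate 2 (477). It was 21, 24 and 27 without DMSO replicates 1, 2 and 3, 29 without SHP1705 replicate 3, 23 and 25 without combination replicates 2 and 3, and 170 without SHP1705 replicate 1. Carfilzomib replicate 1, which stood apart, belongs to this comparison, and 58 genes were called without it. Of the 78 genes, 42 passed when carfilzomib was added to SHP1705 and did not pass without SHP1705. Of the 44 genes with a negative difference, 10 fell in both settings.

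UBB and HSPA8 were among those that fell in both settings and more so with SHP1705. UBB went from 1606, 1524 and 1638 CPM in DMSO to 1218, 1190.5 and 1022 CPM with carfilzomib (log2 -0.48 ± 0.056), and the difference from the -1.02 above was -0.55 ± 0.079 (adjusted p = 0.00184). HSPA8 went from 1618, 1628 and 1639 CPM to 1244, 1297 and 1482 CPM (-0.28 ± 0.049), with a difference of -0.60 ± 0.069 (adjusted p = 0.000104). DNAJA1 had a difference of -0.37 ± 0.056. These 3 differences passed when any 1 of the 12 libraries was left out. HSPA6 differed the other way, rising from 1.91, 1.79 and 1.87 CPM to 12.7, 10.7 and 9.66 CPM without SHP1705 and more with it (difference 1.13 ± 0.26, adjusted p = 0.0456). The HSPA6 call was lost in 9 of 12 fits that left out 1 library, namely each DMSO and each combination library, SHP1705 replicates 1 and 2 and carfilzomib replicate 3, in which the difference ran from 0.94 to 1.20.

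SLC43A2, a transporter of large neutral amino acids, rose from 24.4, 27.4 and 28.1 CPM to 42.9, 37.3 and 36.4 CPM without SHP1705 and from 27.9, 26.4 and 24.3 CPM to 65.6, 65.2 and 59.9 CPM with it. The difference was 0.74 ± 0.11 (adjusted p = 0.00218). CDK1 was 94.3, 98 and 101 CPM in DMSO and 84.5, 79.9 and 98.8 CPM with carfilzomib, where it did not pass (log2 -0.16 ± 0.066) except without carfilzomib replicate 3 (-0.25, adjusted p = 0.00273), and its difference was -0.51 ± 0.094. The CDK1 difference was lost without DMSO replicate 1 (-0.48), DMSO replicate 2 (-0.51), SHP1705 replicate 2 (-0.47) or combination replicate 3 (-0.48). GALNT3, an enzyme that starts mucin-type glycosylation, fell only in the SHP1705 setting at the threshold used, and its difference of -0.61 ± 0.099 passed (adjusted p = 0.00365).

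Hypoxia genes were among the negative differences. Of the 28 genes of that list, 9 fell without SHP1705 against 20 with it, and 6 had a negative difference at an adjusted p under 0.05. CA9 stood at 16.4, 15.2 and 16.5 CPM in DMSO and at 10.2, 12.1 and 14.4 CPM with carfilzomib, against 28.2, 28.6 and 27.6 CPM with SHP1705 and 11.3, 12.9 and 13 CPM with both (difference -0.80 ± 0.15, adjusted p = 0.0151). BNIP3 was 143 ± 4.80 CPM in DMSO and 142 ± 7.42 CPM with carfilzomib, P4HA1 105 ± 1.51 and 102 ± 4.01 CPM, and LDHA 2099 ± 92.7 and 2010.2 ± 82.7 CPM. Their differences were -0.45 ± 0.077, -0.44 ± 0.070 and -0.39 ± 0.059, and that of NDRG1, a hypoxia-induced growth regulator, was -0.37 ± 0.055. For CA9, BNIP3 and P4HA1 the SHP1705 group was the highest of the 4 groups and the 3 others lay closer together. The CA9 difference was lost without DMSO replicate 2 (-0.76), SHP1705 replicate 2 (-0.78) or combination replicate 1 (-0.73), while those of BNIP3, P4HA1, LDHA and NDRG1 passed when any 1 library was left out.

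**Figure D5:**
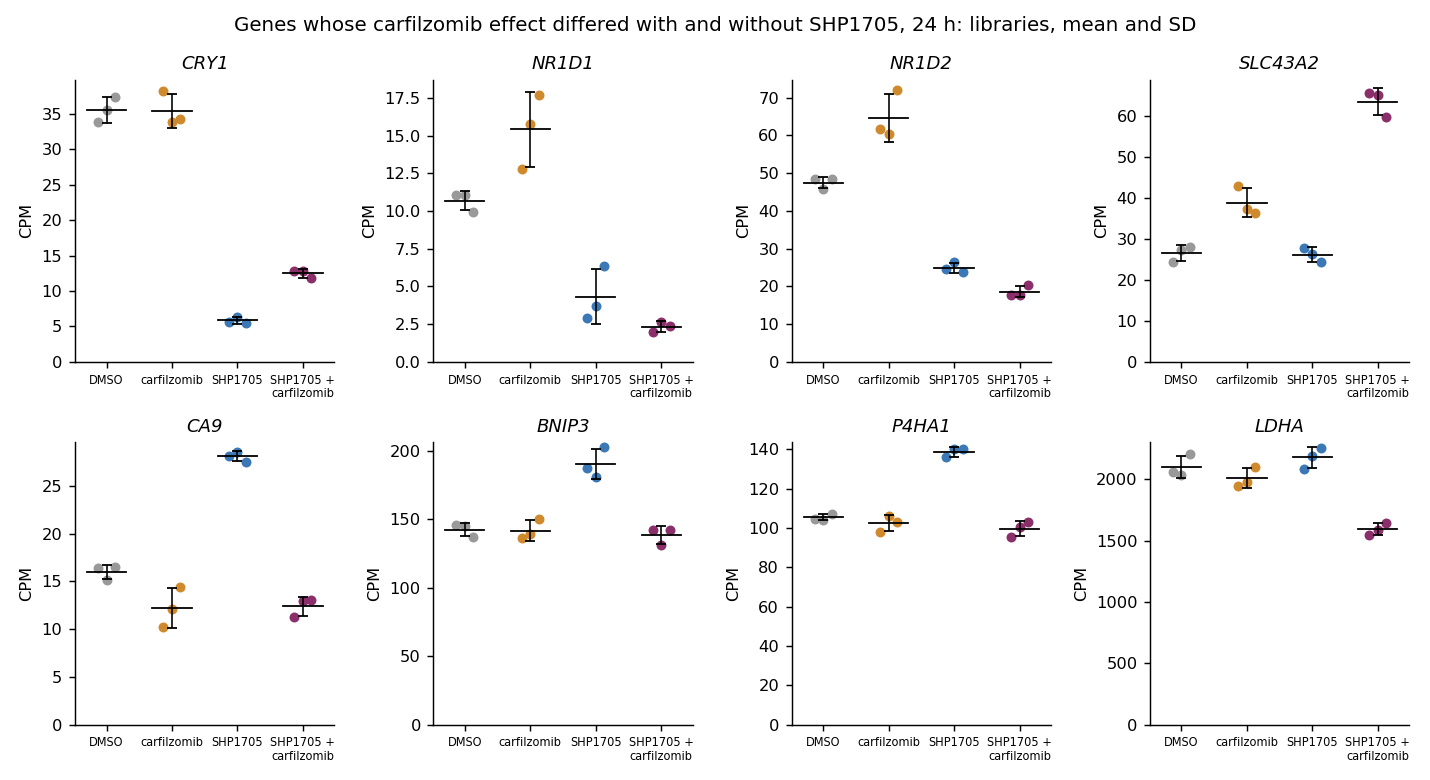
CPM by library (points) with the mean and SD of 3 libraries for 8 genes whose carfilzomib effect differed with and without SHP1705, in the 4 groups at 24 h; each axis starts at 0. CRY1 is near 35 CPM with DMSO or carfilzomib, near 6 CPM with SHP1705 and near 13 CPM with both drugs, while CA9, BNIP3 and P4HA1 are highest with SHP1705.

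Clock genes were among those with a difference. CRY1, which encodes a cryptochrome and is itself repressed through the E-box by cryptochrome, lies at chr12:106991364-107093549. It stood at 33.8, 35.6 and 37.5 CPM in DMSO, 38.2, 33.9 and 34.3 CPM with carfilzomib, 5.63, 6.41 and 5.51 CPM with SHP1705 and 12.8, 12.9 and 11.8 CPM with both. Carfilzomib gave log2 1.10 ± 0.099 when added to SHP1705 (adjusted p = 1.74e-08) and -0.0075 without it, and the difference was 1.10 ± 0.13 (adjusted p = 0.000104). Both SHP1705 groups stayed well below the groups without it. CRY2 rose from 5.32, 3.49 and 3.75 CPM to 7.28, 5.35 and 5.81 CPM (0.56 ± 0.15), a call lost without SHP1705 replicate 2 (0.44) or combination replicate 1 (0.41).

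The REV-ERB genes went the other way from CRY1. NR1D2, which encodes the repressor REV-ERB beta, fell from 24.7, 26.4 and 23.8 CPM to 17.8, 17.6 and 20.4 CPM when carfilzomib was added to SHP1705 (-0.42 ± 0.082) and rose from 48.4, 45.8 and 48.3 CPM to 61.8, 60.4 and 72 CPM without SHP1705 (0.45 ± 0.074). The difference was -0.87 ± 0.11 (adjusted p = 0.000382). NR1D1, which encodes REV-ERB alpha, went from 2.88, 3.73 and 6.36 CPM to 1.97, 2.68 and 2.39 CPM with SHP1705 (-0.89 ± 0.23) and from 11, 11.1 and 9.94 CPM to 12.8, 15.8 and 17.7 CPM without it (0.53 ± 0.18), a difference of -1.42 ± 0.29. SHP1705 replicate 3 was the highest of its group for NR1D1, and without it the fall was -0.50 and did not pass. The NR1D1 difference was also lost without that library (-1.02), without any 1 DMSO library (-1.44 to -1.37) and without any 1 combination library (-1.52 to -1.31). The rise without SHP1705 was lost without any 1 DMSO library (0.48 to 0.55), carfilzomib replicate 2 (0.51) or carfilzomib replicate 3 (0.42).

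The other clock genes moved less clearly. TEF, an output factor of the clock, fell by 0.91 at very low levels (0.946, 0.933 and 0.735 CPM and 0.348, 0.730 and 0.308 CPM), and its call was lost without SHP1705 replicate 1 (-0.85), SHP1705 replicate 2 (-0.86), combination replicate 1 (-0.75) or combination replicate 3 (-0.69), while the fall was 1.39 without combination replicate 2. NPAS2, a partner of BMAL1, fell from 115, 123 and 123 CPM to 96.8, 99.2 and 96 CPM (-0.30 ± 0.059). ARNTL, which encodes BMAL1, stood at 16.2, 16.5 and 13.1 CPM and 18.7, 17.3 and 19.7 CPM and did not pass (log2 0.29 ± 0.11, adjusted p = 0.0544). PER3 stood at 0.709, 1.01 and 1.43 CPM and 0.619, 1.05 and 0.923 CPM and did not pass. Of 12 E-box controlled genes 2 rose and 3 fell, and of 5 genes controlled by ROR and REV-ERB 0 rose and 1 fell.

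The 8 h sets differ in agent, dose or time, so their values are given beside those at 24 h and no difference was tested. With MG132 at 100 nM added to SHP1705 for 8 h, 5143 genes were higher (31.0% of 16591 tested) and 4978 lower (30.0%). SHP1705 replicate 1 of that set lay with the DMSO libraries on the second principal component (10.1, against 10.3 to 15.1 in DMSO and -13.4 to -12.7 in the other two), and 9561 genes in all were called without it against 10121 with it. Combination replicate 1 also stood apart from its group there (21.6 against -3.15 and -6.4), and 9637 genes were called without it. MG132 replicate 2, which is outside this comparison, lay at 12.2 against -10.7 and -34.8 in its group. On the first principal component the libraries with MG132 and no SHP1705 lay at 18.5, 24.9 and 2.07, against 24.8 to 25.7 in DMSO. Those with both drugs lay at -61.15, -65.48 and -65.86. The values given here are thus for MG132 in cells that also had SHP1705, and its effect without SHP1705 was not tested. All 14 core and all 19 regulator subunits were higher there too, with medians of 0.86 and 1.09, and PSMC4 rose by 1.67. AKR1B10 rose by 2.51, SQSTM1 by 1.76 and GABARAPL1 by 3.61, and SLCO4A1 fell by 2.43. Of 29 heat shock genes 27 rose and 0 fell with MG132, with HSPA1A at 695, 630.4 and 614 CPM with SHP1705 and 38927, 40611 and 39707 CPM with both, HSPA6 up by 7.25 and DNAJB1 by 3.82.

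With MG132 added to SHP1705 at 8 h, ATF4 rose by 1.67, HSPA5 by 1.93, SLC1A4 by 1.92, GDF15 by 1.01, UBB by 0.99 and HSPA8 by 1.60. All 6 fell with carfilzomib added to SHP1705 at 24 h. PLK1 fell in both, by 1.70 with MG132. CRY1 rose by 0.44. Of the 1883 genes higher with carfilzomib at 24 h and tested in both sets, 61.7% were higher with MG132 at 8 h and 17.7% lower.

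Libraries of the 8 h carfilzomib set went against their labels, and only their levels and counts of calls are given. HSPA1A stood at 14559, 23605 and 23242 CPM in the libraries labelled DMSO and at 792, 726 and 896 CPM in those labelled carfilzomib. It was 19856, 705 and 693 CPM in those labelled SHP1705 and 892, 12020.0 and 15052 CPM in those labelled with both drugs, so that replicates of 1 group lay far apart. Within groups the fitted coefficient of variation came to 0.172, against 0.0672 at 24 h. With these labels, edgeR's quasi-likelihood test called 0 of 15577 genes for carfilzomib added to SHP1705 at 8 h (0%), with 446 at an unadjusted p under 0.05 (2.86%), and DESeq2 called 2.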

How the data were processed

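The authors deposited raw counts per gene from polyA RNA-seq, 54583 genes in each of 3 tables of 12 libraries. Per the submitters' processing notes, Trimmomatic, FastQC, HISAT2 and featureCounts were used on hg38 (the sources used here do not give versions, annotation or strand setting). Overlapping or antisense genes therefore cannot be told apart. Columns were joined to samples by the names in the labels, and 0 were left unused. The deposited counts of the 24 h table entered 1 edgeR fit of its 4 groups (edgeR 4.0.16, R 4.3.3), with filterByExpr, TMM factors and the quasi-likelihood F-test. Benjamini-Hochberg adjustment ran over all genes tested, and an adjusted p under 0.05 is a call. Log2 fold changes (prior count 0.125) are given ± SE, and levels are CPM on TMM-scaled library sizes, as mean ± SD where not listed by library, in the order of replicates 1 to 3. Levels are not divided by gene length, so they are compared between libraries and not between genes. The effect with SHP1705 minus the effect without it was tested as an interaction in that fit.

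The members, the 39 gene lists (696 symbols) and the named genes were chosen with earlier results of these data known. The rule took, of called genes without overlap between groups and averaging 5 CPM or more, the 12 highest and 12 lowest, then from each list up to 4 members by p and 4 by fold, the 6 highest and 6 lowest called differences, the clock genes and a short set of proteasome stress genes. BNIP3, DNAJA1, HSP90AA1, NDRG1, PSMB6 and USP14 were named after their values were seen. DESeq2 1.42.0, no filter, relative log expression factors, a block on replicate number and other fits were run as alternatives, as was leaving out each library; the fit without carfilzomib replicate 1 was added after seeing the data. The method was tested on simulated data. Positions and promoter sequences are RefSeq's on GRCh38.p14, matched by symbol. AKR1B10, SLCO4A1 and B4GALNT1 had no promoter entry. Figures were drawn with matplotlib 3.10.9. Some genes are not reported here.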

Additional observations from a re-analysis of the deposited data

Results flagged for a closer look

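The carfilzomib effect at 24 h differed with and without SHP1705, by edgeR's interaction test with Benjamini-Hochberg adjustment, for 20 named genes, and these differences are log2 values of the effect with SHP1705 minus the effect without it. Positive differences were 1.13 for HSPA6 (adjusted p = 0.0456), 1.10 for CRY1 (0.000104), 0.74 for SLC43A2 (0.00218), 0.73 for FOXO6 (0.032), 0.69 for TM7SF2 (0.0244) and 0.63 for RILP (0.027). FOXO6, a forkhead factor, went from 21.5, 17.2 and 20.8 CPM to 28.5, 28.7 and 30.4 CPM with SHP1705 and from 19.7 ± 0.943 CPM to 17.4 ± 3.30 CPM without it. TM7SF2, a sterol reductase, fell without SHP1705 (-0.88 ± 0.10) and did not pass with it (-0.19 ± 0.095). RILP, a lysosomal adaptor of RAB7, rose with SHP1705 (0.45 ± 0.090).

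Negative differences were -1.42 for NR1D1 (0.0269), -0.91 for TBXAS1 (0.041), -0.87 for NR1D2 (0.000382), -0.86 for PPFIBP2 (0.0456), -0.80 for CA9 (0.0151), -0.61 for GALNT3 (0.00365), -0.60 for HSPA8 (0.000104), -0.55 for UBB (0.00184) and -0.51 for CDK1 (0.0151). They were -0.45 for BNIP3 (0.00692), -0.44 for P4HA1 (0.00332), -0.39 for LDHA (0.00218), -0.37 for NDRG1 (0.00218) and -0.37 for DNAJA1 (0.00218). TBXAS1, thromboxane synthase, went from 10.3, 8.23 and 9.88 CPM to 5.07, 5.96 and 5.69 CPM with SHP1705 and from 7.88 ± 1.01 CPM to 8.64 ± 1.34 CPM without it. Leaving out 1 of the 12 libraries at a time ended the call in 11 fits for PPFIBP2 (all but the fit without carfilzomib replicate 2; difference in the fits that lost it -0.96 to -0.70), in 10 for TBXAS1 (all but those without carfilzomib replicates 1 and 2, -1.01 to -0.83), in 10 for FOXO6 (all but those without SHP1705 replicate 1 and carfilzomib replicate 2, 0.61 to 0.76), in 7 for TM7SF2 (DMSO replicates 2 and 3, SHP1705 replicates 2 and 3 and each combination library, 0.60 to 0.72) and in 6 for RILP (DMSO replicates 2 and 3, SHP1705 replicates 2 and 3, combination replicates 1 and 3, 0.55 to 0.65).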

How the results depend on the processing

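Counts of called genes for carfilzomib added to SHP1705 at 24 h ranged from 3038 to 4063 with 1 library left out and from 3846 to 4497 under the other fits, against 3912, and 243 genes passed when 2-fold or more was also asked. For carfilzomib alone the count was 2493 to 3756 with 1 library left out, and for MG132 added to SHP1705 at 8 h 9561 to 9637. The count of differences between the carfilzomib effects, 78, was 364 with no filter on low counts, 346 in DESeq2 and 20 to 477 with 1 library left out. For carfilzomib added to SHP1705 at 8 h, 44 genes passed with no filter and 2 in DESeq2, and 0 with any 1 library left out.

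Replicate numbers were not taken as pairs, since no pair of same-numbered libraries passed a correlation of 0.1, with values of 0.04 to 0.066 between the SHP1705 and combination groups and -0.027 to 0.02 between DMSO and carfilzomib. Each SHP1705 library correlated best with its own number, a hint from the data that pairing may exist. With the replicate block the counts were 4001 genes for the addition to SHP1705, 3548 for carfilzomib alone, 91 for the difference, 0 at 8 h and 10081 for MG132. The block ended the difference call of HSPA6 (adjusted p = 0.0536) and of PPFIBP2 (0.0545).

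Of 107 genes named for the main comparison, 100 kept direction and call under all alternatives run. PER3, which did not pass, ran from -0.51 (without SHP1705 replicate 1) to 0.0035 (without SHP1705 replicate 3) when 1 library was left out. CRY1 with carfilzomib alone, near 0, changed sign in the fit of only its groups (0.0001), ran from -0.062 (without carfilzomib replicate 1) to 0.028 with 1 library left out, and was above 0 without DMSO replicate 3 (0.028), carfilzomib replicate 2 (0.026) or carfilzomib replicate 3 (0.014). ARNTL passed when only the groups compared were fitted (adjusted p = 0.0374). With carfilzomib alone, the calls of CA9 and PPFIBP2 were lost without 1 or more single libraries.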
